A study of Arabidopsis thaliana with 6 samples.

Results

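The longest stretches of altered CHH methylation in the table were 544 nuclear regions of at least 1000 bp, and every one of them was lower in rbp-ko-1 than in Col-0. They were chosen by sequence context, chromosome and length alone, from the authors' deposited list of differentially methylated regions. Kept were CHH regions (H is A, C or T) on chromosomes 1 to 5, outside the stretch of chromosome 2 from 3.2 to 3.6 Mb that holds a copy of the mitochondrial genome. That list has 9213 regions in all, of which 5628 are nuclear CHH regions outside the copy, so the long regions made up 9.67% of these by number and 42.6% of their length.

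Bisulfite sequencing had been done on 6 libraries of Arabidopsis thaliana. The wild type, Col-0, gave 3 of them, and the other 3 came from rbp-ko-1, named KO27 in the table, which is mutated in RBP45D (AT5G19350), an RNA-binding protein gene. Plants of both genotypes stood on soil in days of 16 h light and 8 h dark until DNA was taken at 26 days, and nothing else distinguishes the groups in the labels. The mutant is a single line, so traits of that line and effects of the mutation cannot be told apart. The labels do not say whether libraries came from separate plants or pools. Each region carries 1 mean methylation level per genotype, with no values per library and no coverage. The spread between replicates and the depth are therefore unknown, no level has an error, and no difference below could be tested against replicate error.

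In plants, CHH methylation is copied onto no opposite strand and has to be laid down again after each round of replication. RNA-directed DNA methylation does this through small RNAs made by the RNA polymerase IV branch, a scaffold transcript made by RNA polymerase V and the methyltransferase DRM2, mainly at short transposons and at the edges of long ones. The methyltransferase CMT2 acts in the bodies of long transposons near centromeres, where the chromatin remodeller DDM1 gives access. Long stretches of CHH methylation are usually found over transposon sequence. The deposited annotation names genes, so whether a given region covers a transposon beside a gene was not analysed here.

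CHH methylation in the long regions stood at a median of 12.9% in Col-0 (quartiles 10.2 and 15.3%, range 4.47 to 27.4%) and 4.68% in rbp-ko-1 (3.47 and 5.95%, range 0.841 to 13.4%). The median difference, rbp-ko-1 minus Col-0, was -7.94 percentage points, and single regions differed by -3.11 to -15.4 points. The count of lower regions, 544 of 544, stands beside 97.3% of all 5628 nuclear CHH regions. The 153 nuclear CHH regions that were higher in rbp-ko-1 were all shorter than 1000 bp. The level in rbp-ko-1 was below 0.5 of that in Col-0 in 539 long regions (99.1%), against 84.3% of all nuclear CHH regions.

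The ratio of the rbp-ko-1 level to the Col-0 level varied little from one long region to the next. Its median was 0.370, with quartiles of 0.335 and 0.395, and 462 of the 544 regions (84.9%) lay between 0.3 and 0.45. Among the 4931 shorter regions that were also lower, the median ratio was 0.354, with quartiles of 0.271 and 0.439, and 44.1% lay between 0.3 and 0.45. A long region averages over more cytosines, a median of 450 against 59 in the shorter ones, and what part of the narrower range this accounts for was not tested. Per kb the long regions had a median of 296 CHH cytosines and the shorter lower ones 283.

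**Figure D1:**
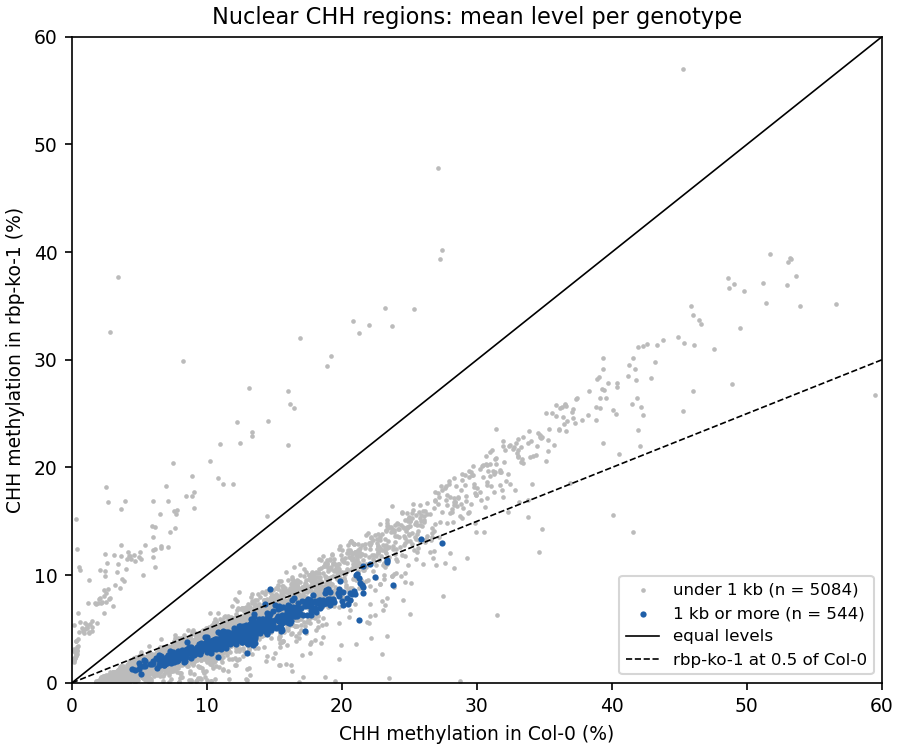
CHH methylation in Col-0 (x axis, %) against rbp-ko-1 (y axis, %) for each nuclear CHH region, with 544 regions of 1 kb or more in blue and 5084 shorter ones in grey; the solid line marks equal levels and the dashed line a rbp-ko-1 level of 0.5 of Col-0. The long regions form a narrow band under the dashed line, 539 of them below it, while shorter regions spread to both sides of the line of equal levels.

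Within the lower regions, the median Col-0 level was higher in longer classes, while the median ratio stayed near the same value. From the shortest class of 51 to 99 bp to the class from 800 bp to just under 1000 bp, the median Col-0 level went from 7.51% to 10.5% and the median ratio from 0.358 to 0.351. In long regions of at least 1000 and under 1500 bp the medians were 11.4% in Col-0 against 4.06% in rbp-ko-1, and in the 75 regions of 3000 bp or more they were 15.4% and 5.88%. The median difference was -7.32 points in the first of these classes and -9.52 points in the second, and the median ratio 0.363 and 0.381. The quartiles of the ratio drew together, from 0.253 and 0.468 in the shortest class to 0.361 and 0.394 in the longest. Length and level come from the same libraries and the same calling of regions, so this order describes the deposited list.

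**Figure D2:**
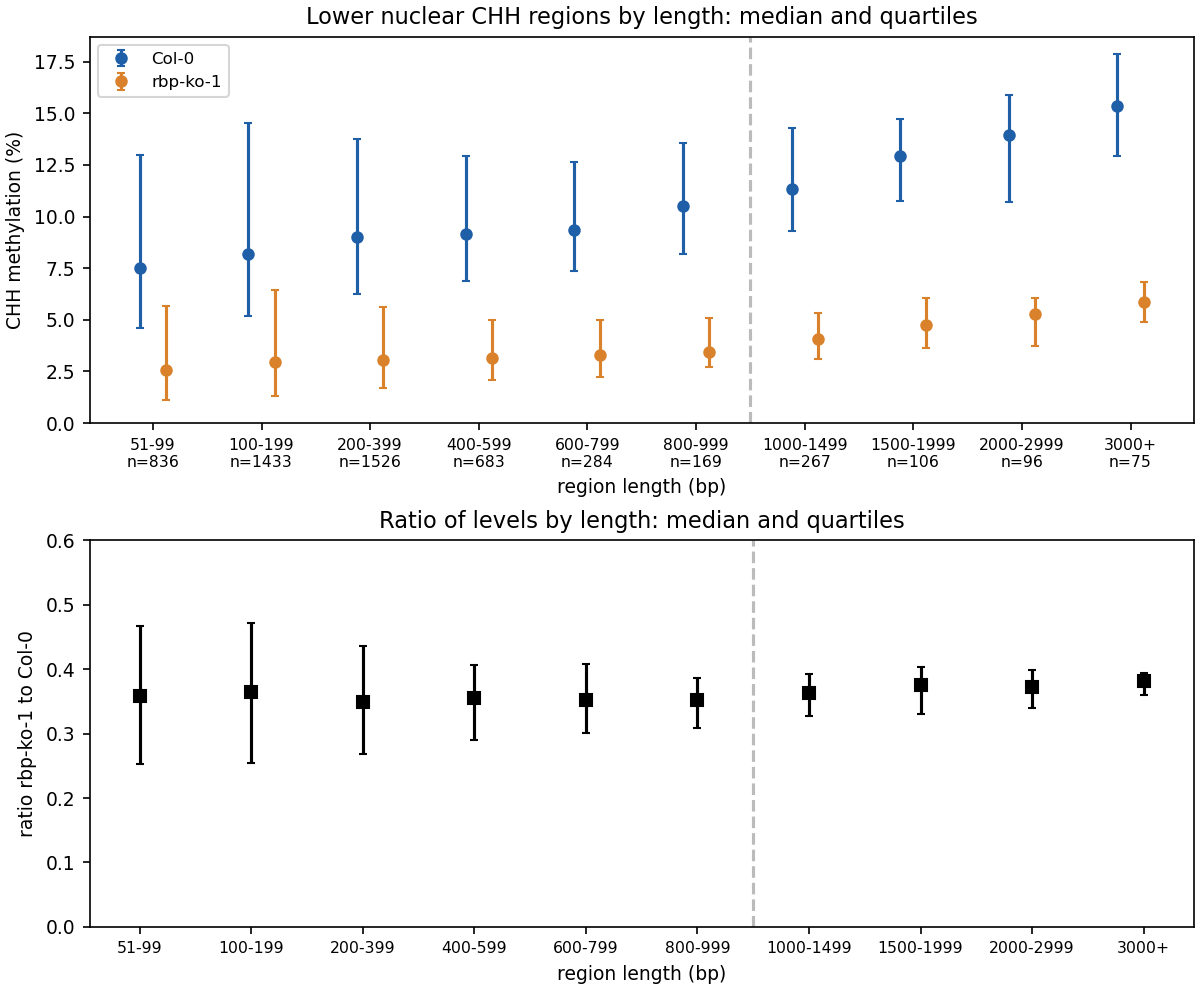
Upper panel, median CHH methylation (%) with quartiles as bars in Col-0 (blue) and rbp-ko-1 (orange) for lower nuclear CHH regions in 10 length classes (x axis, bp); lower panel, the ratio of the genotypes (rbp-ko-1 over Col-0; median and quartiles), and a dashed line at 1000 bp in both. The Col-0 median goes from 7.51% in the shortest to 15.4% in the longest class, and the median ratio stays between 0.350 and 0.381 while its quartiles close in.

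The regions on either side of the length threshold had like values. Just inside it, the promoter of AT3G28918 had 11.5% in Col-0 against 3.64% in rbp-ko-1 over 1000 bp. At 1003 bp, an exon and intron of AT1G27570 had 16.6% and 6.53%, and an exon, intron and 3′ UTR of AT1G43815 had 9.72% and 3.53%. Just outside it, a region of 999 bp at 5S ribosomal RNA genes on chromosome 3 had 12.04% and 4.74%. At the promoter of FAR2 (AT3G11980), a fatty acyl reductase gene, 996 bp had 18.2% and 5.73%, and at the 3′ part of AT3G28870, 995 bp had 12.8% and 4.17%.

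The longest regions lay at transposon-related genes, resistance genes and promoters, and 9 of the 10 longest had ratios between 0.357 and 0.409. Levels were 19.8% in Col-0 against 8.09% in rbp-ko-1 at AT2G16676, annotated as a Ta11-like non-LTR retrotransposon, over 6682 bp and 1953 CHH cytosines (chromosome 2, 7231351 to 7238032). At the promoters of AT4G10970 and AT4G11000 they were 18.8% and 7.40% over 6637 bp (chromosome 4, 6723511 to 6730147). At the promoter of HIRD11 (AT1G54410), a dehydrin gene, and the end of its neighbour AT1G54420 they were 19.3% and 7.75% over 6400 bp. In both genotypes these 3 regions lay above the upper quartile of all long regions.

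A further reverse transcriptase-related gene and a cluster of resistance genes followed. AT1G43730, annotated as a reverse transcriptase-related gene, had 13.3% and 5.25% over 6190 bp and 2016 cytosines (chromosome 1, 16509414 to 16515603). At the neighbouring AT5G47250, AT5G47260 and ADR1-L3 (AT5G47280), all annotated as disease resistance genes, a region of 5942 bp had 18.6% and 7.32% (chromosome 5, 19189473 to 19195414). It covered the promoter of the first, the 3′ end of the second and the start of the third. Near-identical neighbouring copies can share reads, so values in such clusters are uncertain.

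TED6 (AT1G43790), a gene of secondary wall formation in xylem vessels, stood apart among the longest. Its promoter had 9.04% in Col-0 against 2.55% in rbp-ko-1 over 5901 bp, a ratio of 0.282 (chromosome 1, 16569322 to 16575222). The remaining 4 of the 10 longest were at the promoter of AT3G28870, an annotated SIN3-like gene (13.3% and 4.75%), at the start of the extensin-like gene AT4G08370 (13.0% and 4.96%), at the start of the defensin-like gene SCRL1 (AT4G10457) with the promoter of HIPP44 (13.0% and 4.94%), and at the non-coding genes AT3G05385 and AT3G05395 (15.4% and 6.06%).

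The 10 largest differences were all more than 5 Mb from a centromere. At AT1G26558, a non-coding RNA gene beside the β-glucosidase gene BGLU40, CHH methylation was 21.3% in Col-0 against 5.87% in rbp-ko-1 over 1420 bp, a difference of -15.4 points (chromosome 1, 9175587 to 9177006). An intron of AT2G34100 had 23.8% and 9.09% (chromosome 2, 14410755 to 14412363), and AT3G22125, a transmembrane protein gene, had 27.4% and 12.97% (chromosome 3, 7803679 to 7804797). The last is the highest Col-0 level among the 544 regions. The promoter of AT1G18940 was also among the 5 highest, with 23.3% and 11.2% over 1708 bp.

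Several of the largest differences lay upstream of protein-coding genes. Between AT1G61500, a lectin-type receptor kinase gene, and LHCA3 (AT1G61520), which encodes a light-harvesting protein of photosystem I, both promoters shared a region of 3947 bp with 21.6% in Col-0 against 8.34% in rbp-ko-1. The promoter of CAF1-3 (AT1G27820), a homolog of an mRNA deadenylase subunit, had 20.5% and 7.29%. BBX18 (AT2G21320), a B-box protein of light and heat responses, had 20.6% and 7.74% over 3641 bp of promoter (chromosome 2, 9122006 to 9125646). The promoter of AT5G46670 had 20.1% and 7.23%. The other regions of the largest 10 were at AT3G57587 and AT5G18636, both annotated as Ta11-like retrotransposons (20.9% and 8.25%, 22.4% and 9.86%), and at AT3G14670 (21.6% and 8.87%).

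**Figure D3:**
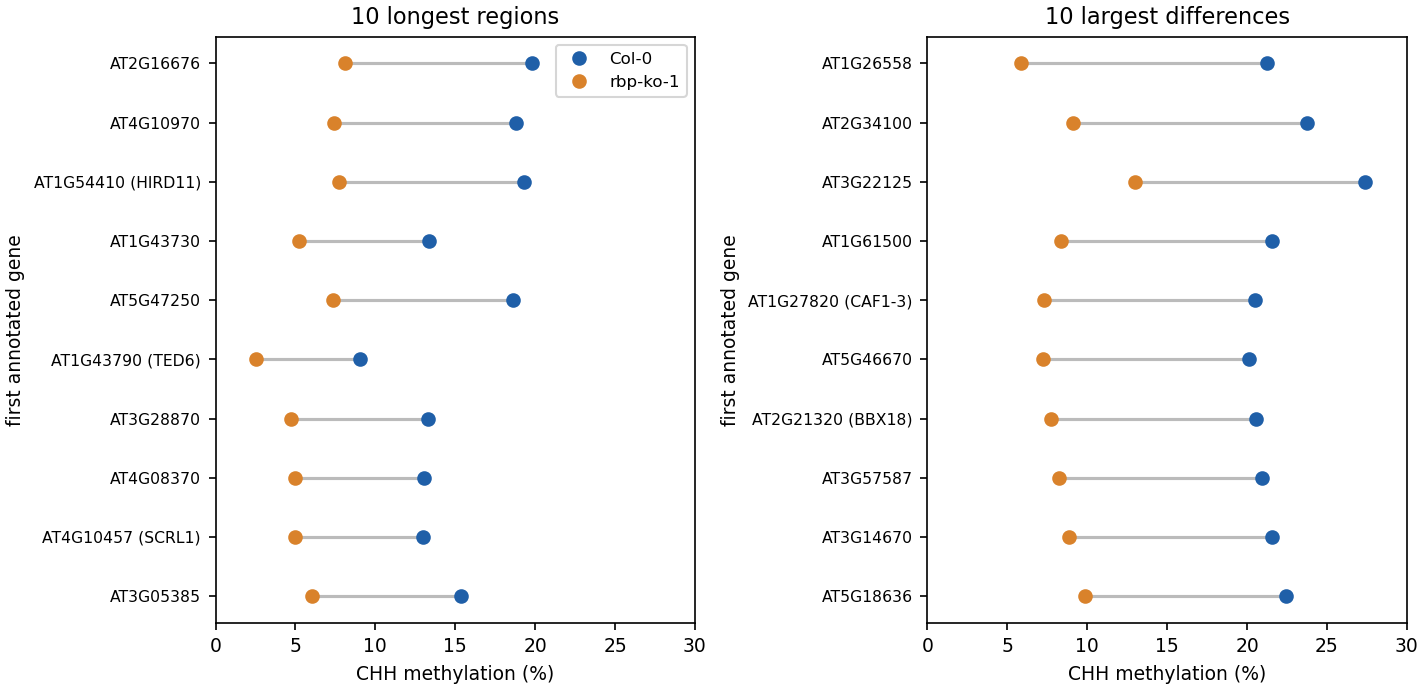
CHH methylation (x axis, %) in Col-0 (blue) and rbp-ko-1 (orange) at the 10 longest regions (left, longest at the top) and at the 10 regions with the largest difference (right, largest at the top), each named by its first annotated gene. In both panels every rbp-ko-1 point lies left of its Col-0 point; the longest regions start between 9.04 and 19.8% in Col-0 and those with the largest differences between 20.1 and 27.4%.

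At the extremes of the ratio, a few regions kept more or less of their methylation than the rest. The lowest ratio, 0.165, was at AT2G04895, a long non-coding RNA gene with annotated start and end inside the region. The level there was 5.11% in Col-0 against 0.841% in rbp-ko-1 (chromosome 2, 1944104 to 1945505). That is the lowest rbp-ko-1 level of all long regions. Unconverted cytosines read as methylated and the conversion rate was not given, so a level this low is uncertain. LECRK56 (AT3G59730), a lectin receptor kinase gene, had 12.98% and 2.76% at its 3′ end, a ratio of 0.213. AT1G48720 had 10.8% and 2.36%, the promoter of the non-coding gene AT1G06963 had 6.27% and 1.37%, and PME15 (AT2G36710), a probable pectinesterase gene, had 8.31% and 1.94%. Only 8 long regions had a ratio below 0.25.

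The 5 long regions that kept 0.5 or more of the Col-0 level were spread over different kinds of genes. A region at a cluster of 5S ribosomal RNA genes on chromosome 5 had 14.7% and 8.72%, a ratio of 0.595 (11185474 to 11186478). At AT1G05030, a probable plastidic glucose transporter gene, the region over the promoter, start and 5′ UTR had 25.9% and 13.4%, a ratio of 0.518. The promoter of APUM9 (AT1G35730), a Pumilio-type RNA-binding protein gene, had 14.3% and 7.29%. A region at AT1G56090 and AT1G56100 had 22.0% and 11.1%, and the shared promoter region of AT4G02760 and PSAD1 (AT4G02770), a photosystem I subunit gene, had 21.6% and 10.8%. The copies of 5S genes are near-identical and can share reads.

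Regions with more CHH methylation in Col-0 also kept a slightly larger part of it. The long regions were split by Col-0 level into 4 groups of 136. In the group with the lowest levels, the medians were 8.33% in Col-0 against 2.69% in rbp-ko-1, with a median ratio of 0.328. In the group with the highest levels they were 17.5% and 7.16%, with a ratio of 0.405. The groups between them had ratios of 0.359 and 0.377. The ratio holds the Col-0 level in its denominator, so the grouping and the ratio are not independent. The lowest group had 82.4% of its regions within 3 Mb of a centromere and the highest 25%.

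By position, 322 of the 544 long regions (59.2%) lay within 3 Mb of a centromere, against 55.8% of all nuclear CHH regions. Within 1 Mb lay 78 (14.3%, against 16.8%) and within 2 Mb 209 (38.4%, against 38.4%). The Col-0 level was lower nearer the centromere. In long regions within 1 Mb the medians were 9.20% in Col-0 against 3.19% in rbp-ko-1, and beyond 5 Mb they were 15.5% and 5.87%. Between these, medians in Col-0 were 11.2% at 1 to 2 Mb, 13.4% at 2 to 3 Mb and 13.4% at 3 to 5 Mb. The median difference went from -6.05 points within 1 Mb to -9.59 points beyond 5 Mb, and the median ratio from 0.351 to 0.378. In shorter lower regions the Col-0 medians were 7.91% within 1 Mb, 7.73% at 1 to 2 Mb, 8.26% at 2 to 3 Mb, 10.6% at 3 to 5 Mb and 11.1% beyond 5 Mb.

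High levels and large differences were mostly found away from the centromeres. Of 25 long regions with at least 20% in Col-0, 1 lay within 3 Mb, and of 98 that differed by at least 10 points, 19 did. The 75 regions of 3000 bp or more had 32 within 3 Mb (42.7%). Their median Col-0 level was 10.4% within 1 Mb, where there were 5, and 16.8% beyond 5 Mb, where there were 27.

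**Figure D4:**
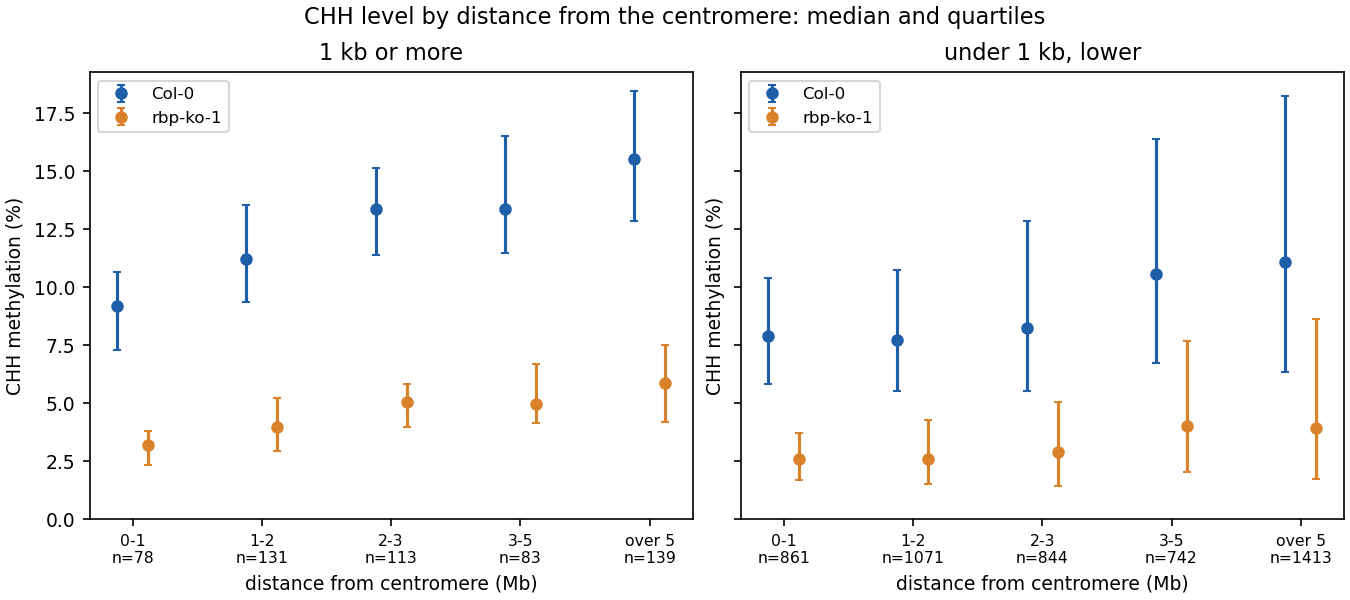
Median CHH methylation (y axis, %) with quartiles as bars in Col-0 (blue) and rbp-ko-1 (orange) by distance of the region's midpoint from the centromere (x axis, Mb), for the 544 long regions (left) and 4931 shorter lower regions (right). In the long regions the Col-0 median goes from 9.20% within 1 Mb to 15.5% beyond 5 Mb, and the rbp-ko-1 median from 3.19% to 5.87%.

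All 5 chromosomes carried long regions with like levels. There were 127 on chromosome 1, 112 on chromosome 2, 120 on chromosome 3, 83 on chromosome 4 and 102 on chromosome 5. Median ratios by chromosome ran from 0.364 on chromosomes 2, 3 and 4 to 0.379 on chromosome 5, and median Col-0 levels from 11.7% on chromosome 2 to 14.2% on chromosome 5. The 1 Mb window with the most long regions was chromosome 2 from 6 to 7 Mb, with 24 of its 155 nuclear CHH regions, followed by chromosome 1 from 16 to 17 Mb with 20 of 118. Of 121 windows with a nuclear CHH region, 99 had at least 1 long region.

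Many long regions lay close to another CHH region. For 382 of them (70.2%) another CHH region of the table lay within 500 bp, and 134 formed 63 runs of long regions no more than 500 bp apart. No such share was computed for shorter regions, so this closeness cannot be called particular to long ones. The run with the most members, 4 with 7517 bp, lay at TOC75-I (AT1G35860), a relative of the chloroplast import channel gene, and AT1G35890, where the levels were 8.39 to 14.5% in Col-0 against 2.29 to 5.64% in rbp-ko-1. Among the 71 neighbouring pairs up to 500 bp apart, the Col-0 levels differed by a median of 1.0 points, against 3.01 points among the 300 neighbouring pairs more than 50000 bp apart. Merging CHH regions of the same direction within 100 bp gave 612 long regions, all lower.

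Promoters were the most common annotation, as in the shorter regions. A promoter was annotated at 467 long regions (85.8%) and 81.1% of shorter ones, and was the sole feature at 300 (55.1%) and 60.01%. Start sites were annotated at 129 long regions (23.7%, against 9.66% of shorter ones) and transcription end sites at 127 (23.3%, against 9.40%). Exons were annotated at 238 (43.8%, against 36.6%) and introns at 153 (28.1%, against 18.2%). More features fit into a longer region, and these shares are not corrected for length. The median levels were 13.3% in Col-0 against 4.95% in rbp-ko-1 where a promoter was the sole feature, 12.6% and 4.40% where a promoter and part of a gene were covered, and 11.0% and 3.64% in the 77 regions with no promoter.

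In 59 long regions a whole gene was covered, with its start and its end both annotated. The same count was not made for shorter regions, and a longer region can more easily hold a whole gene. These 59 regions made 80 pairs of region and gene, of which 31 were protein-coding and 21 long non-coding RNA genes by the RefSeq table. Some microRNA genes are in these pairs under more than 1 gene ID. AT2G04975, AT2G04985 and AT2G04995, 3 non-coding RNA genes on chromosome 2, lay in 1 region of 4741 bp with 10.99% in Col-0 against 3.88% in rbp-ko-1. AT1G34070, annotated as a Copia-like retrotransposon gene, lay in a region with 13.2% and 4.89%, and AT5G39775, a Gag-Pol retrotransposon gene, in a region of 3667 bp with 16.5% and 6.18%. MIR401, an annotated microRNA gene, lay in a region with 13.7% and 5.54%.

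The long regions were annotated to 676 gene IDs, of which 519 were protein-coding in RefSeq. Genes described as transposon or reverse transcriptase genes numbered 25 (3.70% of the IDs, against 1.18% of the 4563 IDs at all nuclear CHH regions). At their 29 regions the Col-0 level ran from 7.28 to 22.4% and the rbp-ko-1 level from 2.08 to 9.86%. The lowest levels among those named by family were at AT4G04265, an En/Spm-type transposase gene (7.86% and 2.08%), and the highest at AT5G18636 of the Ta11 family (22.4% and 9.86%). A Mutator transposase gene, AT5G15685, had 16.1% and 5.60%, and the hAT gene AT1G43260 8.19% and 3.04%. Genes of unknown or undescribed function made up 210 of the 676 IDs (31.1%, against 23.8%). RefSeq's lncRNA class had 78 of the IDs (11.5%, against 10.5%) and its ncRNA class 8 (1.18%, against 0.964%), at regions with medians of 11.6% and 4.17%.

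Other gene classes, sorted by keywords in the gene descriptions, were present in small numbers. There were 16 F-box genes, whose proteins select targets for ubiquitination (2.37% of IDs, against 2.72% at all nuclear CHH regions). Protein or receptor kinase genes numbered 17 (2.51%, against 1.75%), and the promoter of TMK2 (AT1G24650), a receptor kinase gene, had 20.1% in Col-0 against 8.45% in rbp-ko-1 over 4592 bp. At RKF2 (AT1G19090), another receptor kinase gene, the promoter had 19.8% and 9.48% and the 3′ end 23.3% and 11.4%. Disease resistance genes numbered 9 (1.33%, against 0.679%) and transcription factor genes 6 (0.888%, against 1.58%). Pentatricopeptide genes numbered 7 (1.04%, against 0.811%), transporter genes 7 (1.04%, against 0.855%), defensin-like genes 6 (0.888%, against 1.05%) and cytochrome P450 genes 4 (0.592%, against 0.416%). These 6 classes had median ratios between 0.353 and 0.406. Among the transcription factor genes, TCP10 (AT2G31070), of the TCP family of leaf development, had 21.3% and 9.75% at its promoter, and ERF105 (AT5G51190), an ethylene-response factor gene, 9.91% and 3.32%. CYP714A1 (AT5G24910), a cytochrome P450 gene of gibberellin deactivation, had 18.1% and 6.56% at its promoter. By contrast, 5S ribosomal RNA genes were 21 of the 676 IDs (3.11%) but 8.99% of those at all nuclear CHH regions.

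Some genes carried several long regions. In 13 genes there were 3 and in 73 there were 2. AT2G34100, annotated as a nonsense-mediated decay-like gene, had 3 over its introns and promoter, with 7440 bp in all. The Col-0 level was 12.4% at the one that also covers AT2G34120 and the promoter of the defensin-like gene AT2G34123, 20.3% at the middle one and 23.8% at the last, with 4.10, 7.87 and 9.09% in rbp-ko-1. AT2G15710 had 13.5 to 17.7% in Col-0 against 4.44 to 7.14% in rbp-ko-1 over 6752 bp, and AT1G35375 had 13.6 to 14.6% and 5.20 to 5.99% over 5938 bp. The 3 regions of AT1G47657 had 11.4 to 15.9% against 3.603 to 6.07%, those of AT1G58602 9.29 to 11.6% against 3.202 to 4.35%, and those of AT2G15420 10.5 to 13.1% against 3.58 to 4.43%. AT1G58602 lies in a cluster of related genes whose copies can share reads. The 3 regions of AT1G27570 had 13.5 to 16.6% in Col-0 against 4.70 to 6.53% in rbp-ko-1. Those of TOC75-I had 8.39 to 14.5% against 2.29 to 5.64%, and those of AT1G40104 6.25 to 10.98% against 2.29 to 3.997%. At AT2G08986 on chromosome 2, 3 regions just beyond the excluded mitochondrial copy (3616619 to 3624199) had low levels, 4.94 to 6.89% in Col-0 against 1.83 to 2.32% in rbp-ko-1.

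Lists of genes of the methylation machinery, of silenced loci and of flowering were looked up, with no share over all genes of the genome to set beside their counts. Of 29 genes of RNA-directed DNA methylation, MORC6 (AT1G19100), a silencing ATPase gene, was the 1 with a long region, at its promoter, where the level was 23.3% in Col-0 against 11.4% in rbp-ko-1. This is the same region as at the 3′ end of RKF2, and its ratio of 0.488 is near the top of the range. In this list 4 genes, MORC6 included, had a nuclear CHH region of any length. None of 15 listed genes that maintain or remove methylation had a long region, and 2 had a shorter one. The promoter region of ORTH2 (AT1G57820) was higher in rbp-ko-1, with 22.0% in Col-0 against 33.2%. That of ORTH1 (AT5G39550) was lower, with 19.2% against 7.68%. None of 19 flowering-time genes had a nuclear CHH region of any length, nor had RBP45D itself. Outside these lists, and named after their values were seen, the deposited annotation gives the name MET2 and a DNA methyltransferase description to AT4G14140 and AT4G08990. AT4G14140 had 2 long regions, with 10.4% and 3.33% in the first and 8.71% and 2.93% in the second, and AT4G08990 had 1, with 7.70% and 2.42%. Of 4 silenced loci, 3 had a nuclear CHH region of any length, and QQS (AT3G30720), an orphan gene that acts in starch accumulation, had a long promoter region of 1250 bp with 9.56% and 3.66% (chromosome 3, 12346648 to 12347897). A shorter region of its promoter, of 242 bp, had 6.18% and 1.81%. The deposited list holds differing regions only, so a gene without one is not shown to have equal methylation.

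Few places within the long regions were listed in the other contexts. CHG regions of the table overlapped 65 of the 544 (11.9%), and CG regions 30 (5.51%). Shorter lower CHH regions overlapped a CHG region in 2.76% and a CG region in 3.47% of cases. Per Mb of CHH region, 62.0 long regions overlapped a CHG region, against 97.6 shorter lower ones. For CG regions these numbers were 28.6 against 123. They count CHH regions with any overlap and not the overlaps themselves, and they depend on region size. All 77 CHG regions at long regions were lower in rbp-ko-1, where 84.6% of the 319 nuclear CHG regions outside the mitochondrial copy were. Of 137 CHG regions at shorter lower CHH regions, 134 were lower too. The 77 CHG regions at long regions were short, with a median of 99 bp, and covered 0.871% of the length of the long regions.

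The CHG regions kept a larger part of their Col-0 level than did the whole long CHH regions they overlapped. CHH levels within the CHG stretches alone were not available, so the contexts are not compared over the same bases. In points, the median CHG difference was -17.2, against -7.94 in CHH over all long regions. Over the 77 CHG regions the medians were 54.2% in Col-0 against 35.9% in rbp-ko-1, with a median ratio of 0.674, while the CHH regions they overlapped had medians of 13.1% and 4.77%. The largest CHG difference was in the long region at the promoter of BBX18, with 68.3% and 39.7% over 7 cytosines. At AT5G28410, 2 CHG regions had 59.2% and 30.9% over 27 cytosines and 35.5% and 12.6% over 12. A CG region there had 72.5% and 26.5%, while CHH methylation over the whole long region was 11.0% and 3.17%. CAO (AT1G44446), the gene for the enzyme that makes chlorophyll b, had 34.2% and 12.2% over 12 cytosines in a CHG region of its promoter.

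In CG the direction was mixed, and the levels ranged widely. Of 34 CG regions at long CHH regions, 28 were lower and 6 higher (lower in 72.4% of nuclear CG regions), with medians of 81.1% in Col-0 against 66.2% in rbp-ko-1. Of 169 CG regions at shorter lower CHH regions, 155 were lower, with a median ratio of 0.625 against 0.841 at the long ones. At long regions, the largest CG difference was at AT3G44006, from 77.7% to 26.6%. The lowest CG levels there were at AT4G13445, with 25.3% and 2.95% over 8 cytosines. Higher CG levels were seen at AT1G43245 (80.6% and 88.8%), AT1G65760 (85.3% and 91.4%), AT4G09620 (85.6% and 92.2%), AT5G28824 (82.6% and 89.6%), AT5G32590 (85.6% and 92.4%) and AT5G34870 (84.3% and 89.3%), all in CG regions of 15 cytosines or fewer that overlapped long regions with lower CHH methylation. The CG regions at AT1G43245 and AT5G32590 reach beyond the start of the CHH region. A second CG region in the same long region at AT1G43245, with 33 cytosines, was lower, from 90.5% to 85.7%. In 9 long regions both CHG and CG regions were present, among them AT3G22125, AT2G34100 and AT5G28410.

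**Figure D5:**
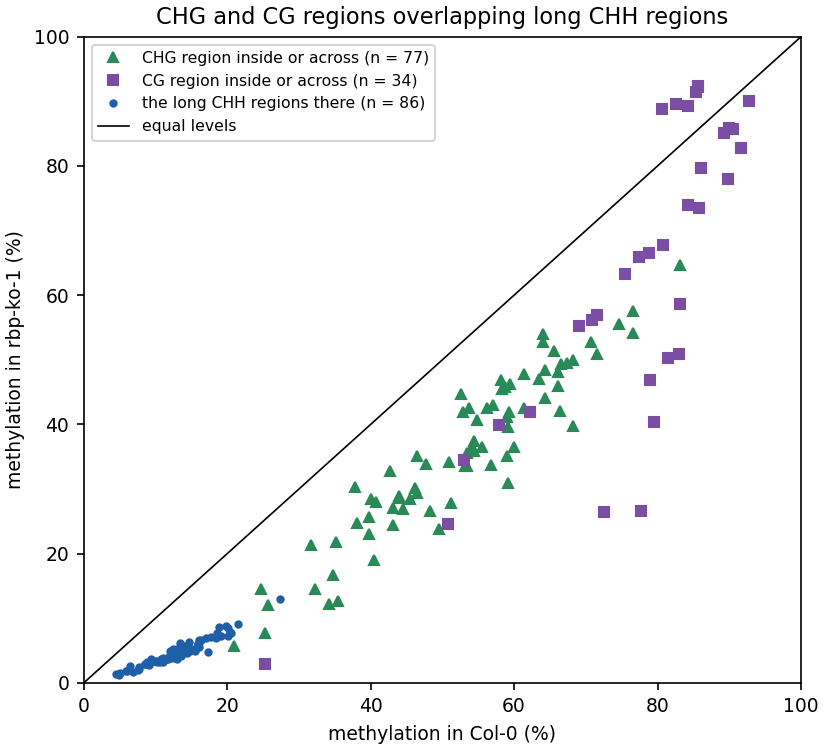
Methylation in Col-0 (x axis, %) against rbp-ko-1 (y axis, %) for the 77 CHG regions (green triangles) and 34 CG regions (purple squares) that overlap a long CHH region, with the 86 long CHH regions concerned in blue; the line marks equal levels. All CHG points and all CHH points lie below the line, and 6 CG points lie above it.

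The nuclear ribosomal DNA held long regions with low CHH levels. At the end of chromosome 2 (2571 to 3764) the level was 4.47% in Col-0 against 1.30% in rbp-ko-1, and at the copies on chromosome 3 it was 5.05% and 1.54% (14196401 to 14198492) and 5.94% and 1.79% (14198694 to 14200480). CG methylation at the first place was 69.1% and 55.2% in one region and 75.5% and 63.2% in another. These genes lie in arrays of near-identical copies that share reads, so the values cannot be assigned to single copies.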

How the data were processed

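Whole-genome bisulfite libraries of Col-0 and rbp-ko-1 plants were compared. The submitters' processing notes list the build TAIR10 and, without versions, the tools Trimmomatic, FastQC, MethylDackel and Bismark. The caller of the regions, its thresholds, the gene annotation, the promoter length and the bisulfite conversion rate: each was not given in the sources used here. An unconverted cytosine reads as methylated, which weighs most on CHH.

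The authors deposited each methylation level as a mean fraction per genotype, and it is given here in percent. Whether the mean was taken over libraries, reads or cytosines is not given in the labels. The deposited difference and area statistic are score columns; the difference was recomputed. Lengths and numbers of cytosines are as deposited. The table's 18828 entries were reduced to unique regions. Coordinates count from 1. No tests were run, since per-library values and coverage were not available, and planned tests per library were not made. Centromeres were taken as 15, 3.6, 14, 4.0 and 12 Mb on chromosomes 1 to 5, and regions were placed by their midpoint. An overlap was 1 bp or more. RefSeq assembly TAIR10.1 gave gene classes for 630 of 676 gene IDs. Python 3.11.15 and pandas 2.3.3 were used, and overlap and merging steps were tested on simulated data.

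Named were the 10 longest regions, the 10 largest differences, the 5 highest Col-0 levels, the 5 lowest and 5 highest ratios, 10 genes with most regions (the lower chromosome and start first) and list genes. Genes of other classes and contexts were chosen after their values were seen. The members and lists were chosen with earlier results of these data known.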

Additional observations from a re-analysis of the deposited data

How the results depend on the processing

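All long regions stayed lower under every alternative run, and most values moved little. The runs with a minimum of 1500 bp or of 5 points, and those without some regions, used subsets of the same regions. Their direction was therefore fixed beforehand. Merging joined only regions of the same direction. With a minimum length of 1500 bp the number fell to 277, the median difference was -8.47 points and the median ratio 0.376. Merging CHH regions within 100 bp gave a median difference of -7.65 points, and a mean weighted by length one of -8.41 points. The share near centromeres was 38.4% at 2 Mb and 14.3% at 1 Mb, and the share with an overlapping CHG or CG region went from 15.8% to 7.90% when at least 100 bp had to be shared. A minimum of 800 bp, the mitochondrial copy kept and a minimum difference of 5 points left every value computed within the 95% interval of the main one, an interval that covers the spread over regions and not over libraries, and left the count and the share of length within 1.5 times. The same held without the 9 regions at ribosomal RNA genes and without the 3 regions under 200 cytosines per kb, both chosen after seeing the data. No paired analysis was possible because the table gives 1 mean per genotype, and for the same reason no library could be left out. The depth behind each level is unknown.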

Other observations

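A few long regions rest on few measured cytosines for their length. At a 5S ribosomal RNA cluster on chromosome 4 (3058299 to 3061007), a region of 2709 bp had only 8 CHH cytosines, against a median of 450 in the long regions, with 13.4% in Col-0 against 3.50% in rbp-ko-1. A neighbouring region of 1365 bp (3052960 to 3054324) had 130, with 8.53% and 3.10%. At AT1G40104, next to the centromere of chromosome 1, a region of 2338 bp had 384, with 6.65% and 2.34%. These regions were singled out after their values were seen, and the number of cytosines was not tested as a cause of their levels.

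MicroRNA genes appeared at 16 long regions. By the RefSeq table they were 13 of the 676 gene IDs (1.92%), against 67 of 4563 at all nuclear CHH regions (1.47%). Among the regions with microRNA genes were ribosomal DNA regions on chromosome 2 (2571 to 3764) and chromosome 3 (14196401 to 14198492). Values there cannot be assigned to single copies. The promoter of MIR829A had 15.3% in Col-0 against 5.74% in rbp-ko-1, and the 2 adjoining regions at MIR401 had 13.7% and 5.54% and 13.6% and 4.35%. The family members MIR5645d and MIR5645c had 15.1% and 5.80% and, at the first of 2 regions, 10.6% and 4.06%. Some microRNA genes are listed under 2 gene IDs in the deposited annotation.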
